A study of Homo sapiens with 12 samples.

Results

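The genes described here make, fold and ship proteins in the endoplasmic reticulum (ER) or take part in the unfolded protein response (UPR), the signalling that adjusts that capacity to the load of new protein. Of 42 genes on the list, 40 were measured among the 18417 genes of the arrays. A gene counted as measured if a probe set annotated to its symbol alone was present, and where a gene had several, as P4HB and SPCS2 did, it was represented by the one with the highest mean level across the 12 arrays. PDIA3 and SEC61G, a disulfide isomerase and a subunit of the translocation channel, had no such probe set and were not analysed here. The genes were listed by name, but with earlier results of these data known. The 40 measured ones fall into 6 roles, which order the results below.

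New secretory proteins enter the ER through the Sec61 channel, lose their signal peptide, and are folded by chaperones of the HSP70 and HSP90 families, by lectin chaperones that read attached sugars, and by enzymes that form and rearrange disulfide bonds. Proteins that fail to fold are pulled back to the cytosol and destroyed, while folded ones leave in vesicles coated by COPII. Misfolded protein in the ER is sensed by IRE1 (gene ERN1), which splices the mRNA of the transcription factor XBP1, by ATF6, which is cleaved into a transcription factor, and by PERK (gene EIF2AK3), which slows translation and raises ATF4. Plasma cells, which secrete antibody, expand all of this machinery under XBP1, with PRDM1 and IRF4 as the other main regulators of their identity.

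Expression was measured on 12 single-colour arrays of 2 human lymphoma cell lines, U-H01, which comes from a Hodgkin lymphoma, and HBL-1, which comes from an aggressive B-cell lymphoma of the activated subtype. All cells, controls included, had been transduced with a hairpin RNA directed at RelB or cRel, both subunits of the transcription factor NF-kB, and doxycycline was given to switch the hairpin on in the induced ones only. There were 4 arrays of U-H01 labelled induced and 4 uninduced, taken at time points 1 and 2 from 2 transduced populations, B1 and B2, and HBL-1 had 2 induced and 2 uninduced arrays, all of a population named C and again 1 at each numbered time point. Replicates 1 and 2 of U-H01 are B1 and replicates 3 and 4 are B2, time point 1 first in each, and values below are given in that order. The labels mark B2 as a second hairpin sequence but do not name the target of B1, B2 or C. Titles end in D1 or D2 on induced arrays where those of uninduced arrays end in Un1 or Un2. The labels give no length for the time points beyond Day1 and Day2. A knock-down of RelA, which the design text also names, was not analysed here. The labels do not say whether the arrays within a group stem from different cultures, and the p-values therefore rest on a spread between arrays that may be technical. In RNA of whole cultures, fewer cells of a type and less RNA per cell cannot be told apart.

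The U-H01 arrays labelled induced and the uninduced ones stood apart from each other. Between these 2 groups the correlation was 0.893 to 0.910 over the 18417 genes. It was 0.992 to 0.994 within U-H01 labelled induced and 0.991 to 0.996 within uninduced U-H01. Induced and uninduced HBL-1 arrays correlated at 0.992 to 0.994. U-H01 labelled induced correlated with either group of HBL-1 at 0.903 to 0.915. That range overlaps and runs above the one between the 2 U-H01 groups. For uninduced U-H01 the correlation to either group of HBL-1 was lower, 0.886 to 0.898. In a check of identity the 8 arrays of U-H01 divided evenly into 2 classes, with 4 arrays differing from the other 4. Of the 4 HBL-1 arrays 0 differed from the rest of their line. The check gave counts only, not which arrays fell in which class. Of the targeted genes, RELB had a level of 7.22, 7.26, 7.39 and 7.14 in U-H01 labelled induced and of 7.23, 7.38, 7.54 and 7.45 in uninduced U-H01, a difference of -0.15 ± 0.09 (adjusted p = 0.209 by limma). REL, the gene of cRel, differed by 0.20 ± 0.09 in U-H01 (adjusted p = 0.0716) and by -0.49 ± 0.12 in HBL-1 (adjusted p = 0.121), and RELA by 0.24 ± 0.08 in U-H01 (adjusted p = 0.0227). Since neither targeted gene passed as lower in U-H01, its arrays are called labelled induced throughout, and the directions given for U-H01 rest on those labels. Every U-H01 result compares the 4 arrays labelled induced with the 4 uninduced ones. Whether such a result reflects the hairpin or different cells was not tested.

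Markers of the cell types the cultures could hold were followed beside the results. The 7 measured B-lineage markers had array means of 8.21 to 8.47 in U-H01 labelled induced, 6.56 to 6.76 in uninduced U-H01 and 10.1 to 10.2 in HBL-1, with 4 markers higher and 1 lower in the U-H01 comparison. CD79A, which signals for the B-cell receptor, had a level of 10.75 to 11.34 in U-H01 labelled induced and of 5.55 to 5.84 in uninduced U-H01. The B-cell antigen CD20 (MS4A1) lay below the median gene in both U-H01 groups. Of 6 Hodgkin line markers, 2 were higher and 3 lower, and CD30 (TNFRSF8) had a level of 11.47 to 11.68 in U-H01 labelled induced and of 6.65 to 7.09 in uninduced U-H01. Array means lay between 4.97 and 5.25 in every group for 14 T and NK cell markers, between 4.55 and 5.20 for 12 myeloid markers and between 5.06 and 5.29 for 13 stromal, endothelial and epithelial markers, with 9 or more markers of each list below the median gene. In the U-H01 comparison 2 T and NK markers were higher and 0 lower, 0 myeloid markers were higher and 1 lower, and 2 markers of the third list were higher and 1 lower. Over all genes 22.4% were higher and 23.5% lower. After centring of the arrays, described below, 7 T and NK, 5 myeloid and 6 stromal, endothelial and epithelial markers were higher, and 0, 0 and 1 lower. At that setting 7517 of all 18417 genes were higher and 3336 lower. The part of the B-lineage and Hodgkin markers in the results below was not tested.

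In U-H01, 20 of the 40 ER genes were higher in the arrays labelled induced and 8 were lower, with 12 that did not pass. The largest rises were those of MZB1 and P4HB among the folding factors, SPCS2 of the signal peptidase, the stress sensor ERN1 and the chaperone HSP90B1, each between 2.1-fold and 2.68-fold. The largest falls were those of the oxidase ERO1B (6.02-fold) and the COPII subunit SEC23B (2.41-fold). HSPA5, the main chaperone of the ER lumen, differed by only 0.09 ± 0.10. In HBL-1, 0 of 40 passed in either direction.

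All differences are log2 differences from 1 limma model over the 12 arrays, given with the standard error of the fit, and a gene passed at a Benjamini-Hochberg adjusted p under 0.05 over all 18417 genes. By that rule 45.8% of all genes passed in the U-H01 comparison, 22.4% as higher and 23.5% as lower, so the 20 of 40 ER genes that were higher stand above the share of all genes, and the 8 of 40 that were lower are near it. The median difference was 0.24 over the 40 genes and 0.03 over all genes. All 4 arrays labelled induced lay above all 4 uninduced ones for 17 of the 40, against 20% of all genes, and below them for 6, against 21.1%. The scale of the arrays bears on this split. With each array centred on its median, all U-H01 differences moved up by 0.15, and the share of higher calls among all calls went to 69.3% against 48.8% as deposited. At that setting 24 of the 40 ER genes were higher and 5 lower, as were 7517 and 3336 of all 18417 genes.

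**Figure D1:**
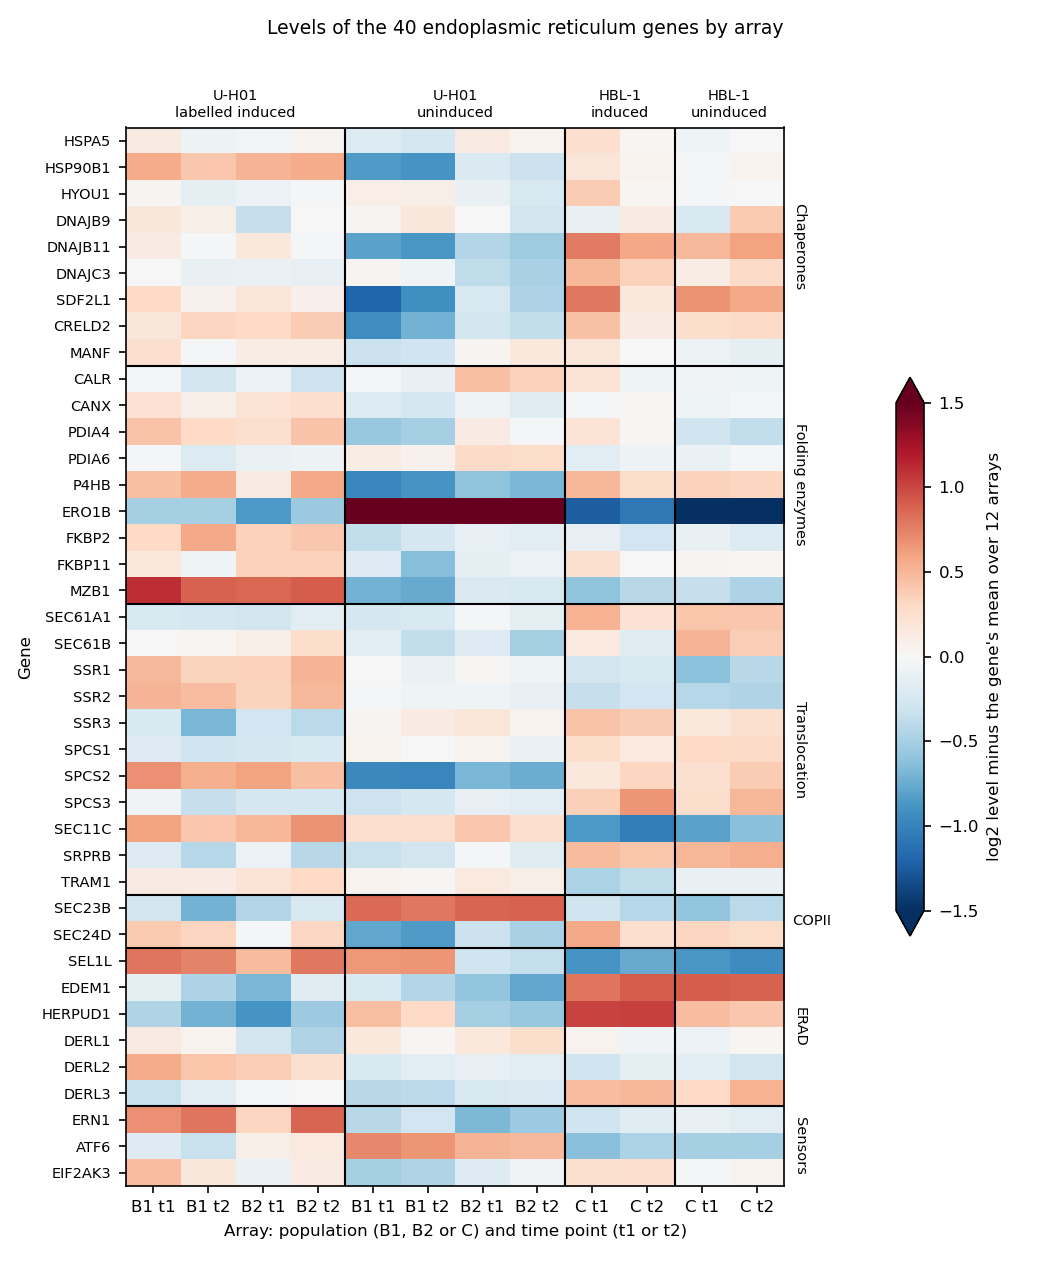
Levels of the 40 ER genes (down the page, by role) on the 12 arrays (across, by group, population and time point), as the log2 level minus the mean of the gene over all arrays, with colours ending at 1.5 either way. ERO1B and SEC23B are high in uninduced U-H01 and low in the other 3 groups, while MZB1, SPCS2 and ERN1 are highest in U-H01 labelled induced.

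Promoters of these genes are where the UPR factors are known to act, so the motifs were looked up first. The RefSeq promoter table (build GRCh38.p14), with 250 bases before and 50 after each start, had entries for 36 of the 42 listed genes. The ER stress response element ERSE, the site of ATF6 and XBP1 beside the factor NF-Y, consists of CCAAT, 9 bases of any kind and CCACG. Searched on both strands, it occurred in 7 of the 36 genes (19.4%), namely CALR, CANX, CRELD2, ERO1B, HSP90B1, HSPA5 and PDIA6, against 0.0916% of all 27305 genes of the table (0.0769% of its 35116 promoters). ERSE-II, which is ATTGG, 1 base of any kind and CCACG, occurred in HERPUD1, HYOU1 and SDF2L1 (8.33%, against 0.0696% of genes and 0.0541% of promoters). The XBP1 element UPRE, TGACGTGG, occurred in HYOU1, where it overlaps an ERSE-II, and in SSR3 (5.56%, against 0.927% of genes and 0.729% of promoters). The 250 bases before the start are printed 5′ to 3′ on the strand of the gene for 5 of them, with ERSE or ERSE-II in capitals on either strand, chosen because the same motifs stand before genes that were higher, lower or not past the test in U-H01. HSP90B1 lies at chr12:103930160-103930409 (plus strand), CRELD2 at chr22:49918384-49918633 (plus strand), HSPA5 at chr9:125241344-125241593 (minus strand), CALR at chr19:12938359-12938608 (plus strand) and HERPUD1 at chr16:56931892-56932141 (plus strand).
HSP90B1: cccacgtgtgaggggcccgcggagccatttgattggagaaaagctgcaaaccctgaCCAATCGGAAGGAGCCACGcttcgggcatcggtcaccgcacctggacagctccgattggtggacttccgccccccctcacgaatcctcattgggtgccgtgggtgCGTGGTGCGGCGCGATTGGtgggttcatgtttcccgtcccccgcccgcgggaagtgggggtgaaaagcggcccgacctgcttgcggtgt
CRELD2: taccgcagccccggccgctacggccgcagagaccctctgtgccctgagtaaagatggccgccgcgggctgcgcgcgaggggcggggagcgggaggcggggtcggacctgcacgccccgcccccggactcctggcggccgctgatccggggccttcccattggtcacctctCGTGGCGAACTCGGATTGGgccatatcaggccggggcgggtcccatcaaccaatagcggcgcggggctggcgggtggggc
HSPA5: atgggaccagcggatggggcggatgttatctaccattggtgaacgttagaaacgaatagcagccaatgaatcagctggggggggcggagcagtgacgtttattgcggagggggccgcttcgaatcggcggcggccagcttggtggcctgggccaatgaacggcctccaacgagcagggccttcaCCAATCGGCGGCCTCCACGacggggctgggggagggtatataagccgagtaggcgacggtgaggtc
CALR: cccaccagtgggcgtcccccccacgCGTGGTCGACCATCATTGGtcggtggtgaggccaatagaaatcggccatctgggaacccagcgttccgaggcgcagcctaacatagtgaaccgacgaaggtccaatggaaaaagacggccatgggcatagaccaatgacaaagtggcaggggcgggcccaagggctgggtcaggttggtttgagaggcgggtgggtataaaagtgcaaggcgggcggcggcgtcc
HERPUD1: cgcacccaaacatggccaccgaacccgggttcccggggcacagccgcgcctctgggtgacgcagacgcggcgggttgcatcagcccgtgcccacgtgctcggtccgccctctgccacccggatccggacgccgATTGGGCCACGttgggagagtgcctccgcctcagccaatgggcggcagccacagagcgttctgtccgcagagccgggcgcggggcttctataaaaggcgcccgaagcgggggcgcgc

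HSP90B1 carries 2 copies of ERSE on opposite strands, from base -194 to -176 and from -89 to -71 relative to the start. CRELD2 (-80 to -62), HSPA5 (-66 to -48) and CALR (-225 to -207) carry 1 each, and HERPUD1 carries 1 ERSE-II (-117 to -107). Genes with a motif were found on both sides of the U-H01 comparison. Of 11 measured genes with any of the 3 motifs, 4 were higher (HSP90B1, CRELD2, SDF2L1 and CANX), 5 lower (CALR, PDIA6, ERO1B, HERPUD1 and SSR3) and 2 did not pass (HSPA5 and HYOU1), with a median difference of -0.02. Of 24 measured genes with a promoter entry and none of the motifs, 15 were higher and 2 lower, with a median of 0.45. Over all genes 22.4% were higher and 23.5% lower. Calls of both sets were lost in some settings. CALR and PDIA6 did not pass with arrays centred, nor did HERPUD1 and, among genes without a motif, EIF2AK3 within B2 alone. A match or its absence is a description of these letters in this window.

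Among the 9 chaperones and their helpers in the ER lumen, 4 were higher in U-H01 labelled induced, 0 were lower and 5 did not pass, with a median difference of 0.22. Over all genes 22.4% were higher and 23.5% lower. HSP90B1, the HSP90 of the ER, which folds integrins, Toll-like receptors and immunoglobulin, had levels of 12.34, 12.18, 12.29 and 12.34 on the arrays labelled induced, against 10.94, 10.90, 11.57 and 11.46 on the uninduced ones. The groups did not overlap, and the uninduced arrays split by population, with B1 lower than B2. The difference was 1.07 ± 0.11, or 2.1-fold (adjusted p = 3.63e-06 by limma). HSPA5 (BiP), the HSP70 that also holds the stress sensors inactive, had 11.63, 11.43, 11.46 and 11.54 on the arrays labelled induced, against 11.29, 11.25, 11.63 and 11.55 on the uninduced ones. Its groups overlapped, and the 95% interval of the difference ran from -0.12 to 0.29. The difference was 0.26 ± 0.12 in B1 and -0.09 ± 0.12 in B2, and neither passed (adjusted p = 0.104 and 0.626). SDF2L1, a partner of ER HSP40 proteins, had 8.38, 8.15, 8.26 and 8.16 on the arrays labelled induced, against 6.89, 7.17, 7.84 and 7.61 on the uninduced ones, again with the lowest levels in uninduced B1. It rose by 0.86 ± 0.15 (adjusted p = 0.00045). CRELD2, a secreted disulfide isomerase-like protein induced by ER stress, had 7.68, 7.84, 7.82 and 7.90 on the arrays labelled induced, against 6.59, 6.80, 7.24 and 7.14 on the uninduced ones, with no overlap. Its rise was 0.87 ± 0.10 (adjusted p = 1.45e-05). DNAJB11, an HSP40 partner of HSPA5, rose by 0.72 ± 0.09 (adjusted p = 2.73e-05). The remaining 4, HYOU1, DNAJB9, DNAJC3 and MANF, differed by -0.02 to 0.22 and did not pass.

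All 9 measured lectin chaperones and folding enzymes passed, 6 as higher and 3 as lower, with a median of 0.46. Of all genes 45.8% passed, 22.4% as higher and 23.5% as lower. MZB1, a helper of HSP90B1 found in B and plasma cells, where it serves antibody assembly, had levels of 10.24, 10.02, 10.00 and 10.05 on the arrays labelled induced, against 8.42, 8.37, 8.92 and 8.90 on the uninduced ones. It had the largest rise of the 40 genes in U-H01, 1.42 ± 0.12 (adjusted p = 6.79e-07), and its uninduced U-H01 levels overlapped those of HBL-1 (8.53 to 8.72 induced and 8.67 to 8.79 uninduced). P4HB, the disulfide isomerase PDI, had 11.38, 11.48, 11.06 and 11.50 on the arrays labelled induced, against 9.95, 10.04, 10.33 and 10.24 on the uninduced ones. The groups were more than 0.7 log2 units apart at their nearest arrays, and the difference was 1.22 ± 0.11 (adjusted p = 1.28e-06). FKBP11, a prolyl isomerase of secretory tissues, was at 7.59 or above on the arrays labelled induced and at 7.56 or below on the uninduced ones. The gap between the groups was narrow, and the rise was 0.46 ± 0.09 (adjusted p = 0.00112). CANX (the membrane lectin calnexin), FKBP2 and PDIA4 rose by 0.37, 0.63 and 0.59. Within B2 alone PDIA4 did not pass (0.28, adjusted p = 0.0834 by limma).

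Opposite to them, ERO1B, the oxidase that recharges PDI and is known from insulin-secreting cells, had levels of 5.71, 5.71, 5.35 and 5.66 on the arrays labelled induced, against 8.32, 8.19, 8.20 and 8.09 on the uninduced ones. The fall of 2.59 ± 0.09 (adjusted p = 1.04e-10) left the arrays labelled induced between the level of HBL-1, which was 4.97 to 5.14 induced and 4.58 to 4.62 uninduced, and that of uninduced U-H01. Its relative ERO1A, which is not on the list, differed by 0.17 ± 0.11 and did not pass (adjusted p = 0.234). PDIA6, another disulfide isomerase, had 12.64, 12.46, 12.57 and 12.60 on the arrays labelled induced, against 12.78, 12.74, 12.96 and 12.95 on the uninduced ones, and CALR, the soluble lectin chaperone calreticulin, had 11.04, 10.78, 10.96 and 10.75 on the arrays labelled induced, against 11.02, 10.94, 11.50 and 11.40 on the uninduced ones. The CALR arrays overlapped, since uninduced B1 lay at the level of the arrays labelled induced and only uninduced B2 was above it, while those of PDIA6 did not overlap. PDIA6 fell by 0.29 ± 0.08 (adjusted p = 0.00743) and CALR by 0.34 ± 0.11 (adjusted p = 0.0231). Neither passed after centring of the arrays (-0.14 and -0.19, adjusted p = 0.161 and 0.171). CALR also failed without any 1 of replicates 3 and 4 of either group (adjusted p = 0.0841 to 0.102), and within B1 it differed by -0.07 ± 0.11 (adjusted p = 0.673).

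The 11 measured genes of translocation, signal peptidase and targeting gave 5 rises and 2 falls, with a median of 0.11. Over all genes 22.4% were higher and 23.5% lower. SPCS2, a subunit of the signal peptidase that removes the leader of secretory proteins, had 10.41, 10.26, 10.34 and 10.18 on the arrays labelled induced, against 8.76, 8.75, 9.04 and 8.99 on the uninduced ones. With no overlap it rose by 1.41 ± 0.09 (adjusted p = 3.11e-08). The other subunits of the same enzyme differed among themselves. SPCS1 had 9.43, 9.32, 9.35 and 9.39 on the arrays labelled induced, against 9.67, 9.62, 9.68 and 9.52 on the uninduced ones, with no overlap, and fell by 0.25 ± 0.07 (adjusted p = 0.0149). SPCS3 differed by -0.02 ± 0.09 (adjusted p = 0.909), and the catalytic subunit SEC11C rose by 0.25 ± 0.09 (adjusted p = 0.0364). The SPCS1 call ended without replicate 3 of either group (-0.23 each, adjusted p = 0.058 and 0.0503), after centring (-0.10, adjusted p = 0.292) and within B1 or B2 alone (-0.27 and -0.23, adjusted p = 0.063 and 0.126). The SEC11C call ended without U-H01 replicate 1 or 4 labelled induced and without any 1 of the 4 uninduced arrays (adjusted p = 0.0544 to 0.125). SSR1, SSR2 and SSR3 are subunits of the translocon-associated protein complex beside the channel, and they split. SSR3 had 8.87, 8.42, 8.82 and 8.70 on the arrays labelled induced, against 9.15, 9.23, 9.28 and 9.15 on the uninduced ones. Its groups did not overlap, and it fell by 0.50 ± 0.09 (adjusted p = 0.000564), while SSR1 and SSR2 rose by 0.45 and 0.52. Of the Sec61 channel itself, SEC61B rose by 0.41 and SEC61A1, the pore, differed by -0.07 ± 0.08. Within B1 alone SEC61B did not pass (0.29, adjusted p = 0.107 by limma). SRPRB and TRAM1 differed by -0.08 and 0.11 and did not pass.

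The 2 subunits of the COPII coat moved apart. SEC23B, in the inner layer of the coat, had levels of 9.80, 9.37, 9.64 and 9.84 on the arrays labelled induced, against 10.93, 10.87, 10.96 and 10.97 on the uninduced ones, a fall of 1.27 ± 0.10 (adjusted p = 3.92e-07). SEC24D, which binds cargo, had 8.69, 8.63, 8.28 and 8.61 on the arrays labelled induced, against 7.53, 7.46, 7.98 and 7.82 on the uninduced ones, a rise of 0.86 ± 0.13 (adjusted p = 0.000115). Neither pair of groups overlapped, and for SEC23B the arrays labelled induced lay at the HBL-1 level (9.65 to 9.78 induced, 9.49 to 9.68 uninduced).

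Of 6 genes of ER-associated degradation, which returns misfolded proteins to the cytosol, SEL1L and DERL2 rose, HERPUD1 fell, and EDEM1, DERL1 and DERL3 did not pass. Over all genes 22.4% were higher and 23.5% lower. HERPUD1, a UPR target that holds the degradation complex together, had 9.83, 9.58, 9.41 and 9.75 on the arrays labelled induced, against 10.74, 10.59, 9.79 and 9.73 on the uninduced ones. Here the overlap came from B2, whose uninduced arrays lay within the range of the arrays labelled induced. The fall over both populations was 0.57 ± 0.15 (adjusted p = 0.00661), made of -0.95 ± 0.14 in B1 (adjusted p = 9.72e-05) and -0.18 ± 0.14 in B2 (adjusted p = 0.367). SEL1L, the partner of the ubiquitin ligase of this pathway, had 10.24, 10.18, 9.91 and 10.23 on the arrays labelled induced, against 10.08, 10.10, 9.14 and 9.09 on the uninduced ones. Its uninduced B1 arrays were as high as those labelled induced and its uninduced B2 arrays about 1 log2 unit lower. The difference of SEL1L was 0.12 ± 0.12 in B1 (adjusted p = 0.512) and 0.96 ± 0.12 in B2 (adjusted p = 4.21e-05), and 0.54 ± 0.15 over both (adjusted p = 0.00946). DERL3, a derlin of secretory tissues and plasma cells, had 5.98, 6.15, 6.29 and 6.32 on the arrays labelled induced, against 5.89, 5.92, 6.07 and 6.09 on the uninduced ones, close to the median gene of the arrays (6.10 to 6.33). It did not pass (0.19 ± 0.08, adjusted p = 0.0593), but passed as higher with centring, with quantile normalization repeated, among genes above the median level and with replicate 1 of U-H01 labelled induced left out (adjusted p = 0.00196 to 0.0492). Whether a fold is understated at such a level was not tested. DERL1, another derlin, differed by 0.01 ± 0.12 in B1 (adjusted p = 0.957) and by -0.58 ± 0.12 in B2 (adjusted p = 0.00145). Over both its difference was -0.28 ± 0.12, which did not pass but passed as lower in 5 further alternatives, among them without replicate 1 or 2 labelled induced and without uninduced replicate 2 (adjusted p = 0.0281 to 0.0483).

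The 3 stress sensors each changed, and not in the same direction, in a comparison where 45.8% of all genes passed. ERN1 had levels of 7.91, 8.03, 7.55 and 8.10 on the arrays labelled induced, against 6.81, 6.93, 6.55 and 6.67 on the uninduced ones, with no overlap and a rise of 1.16 ± 0.09 (adjusted p = 3.2e-07). ATF6 had 9.44, 9.30, 9.73 and 9.79 on the arrays labelled induced, against 10.35, 10.30, 10.14 and 10.13 on the uninduced ones. Every array labelled induced was lower than every uninduced one, and the fall was 0.67 ± 0.11 (adjusted p = 0.000283), with -0.95 ± 0.11 in B1 and -0.38 ± 0.11 in B2. EIF2AK3 had 8.05, 7.76, 7.49 and 7.72 on the arrays labelled induced, against 7.10, 7.14, 7.41 and 7.54 on the uninduced ones. Of the arrays labelled induced, B2 at time point 1 lay within the uninduced range and the other 3 above it. The rise of 0.46 ± 0.13 (adjusted p = 0.0114) was made of 0.79 ± 0.13 in B1 (adjusted p = 0.000292) and 0.13 ± 0.13 in B2 (adjusted p = 0.495), and it did not pass without uninduced replicate 1 or 2 (adjusted p = 0.0536 and 0.0535).

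**Figure D2:**
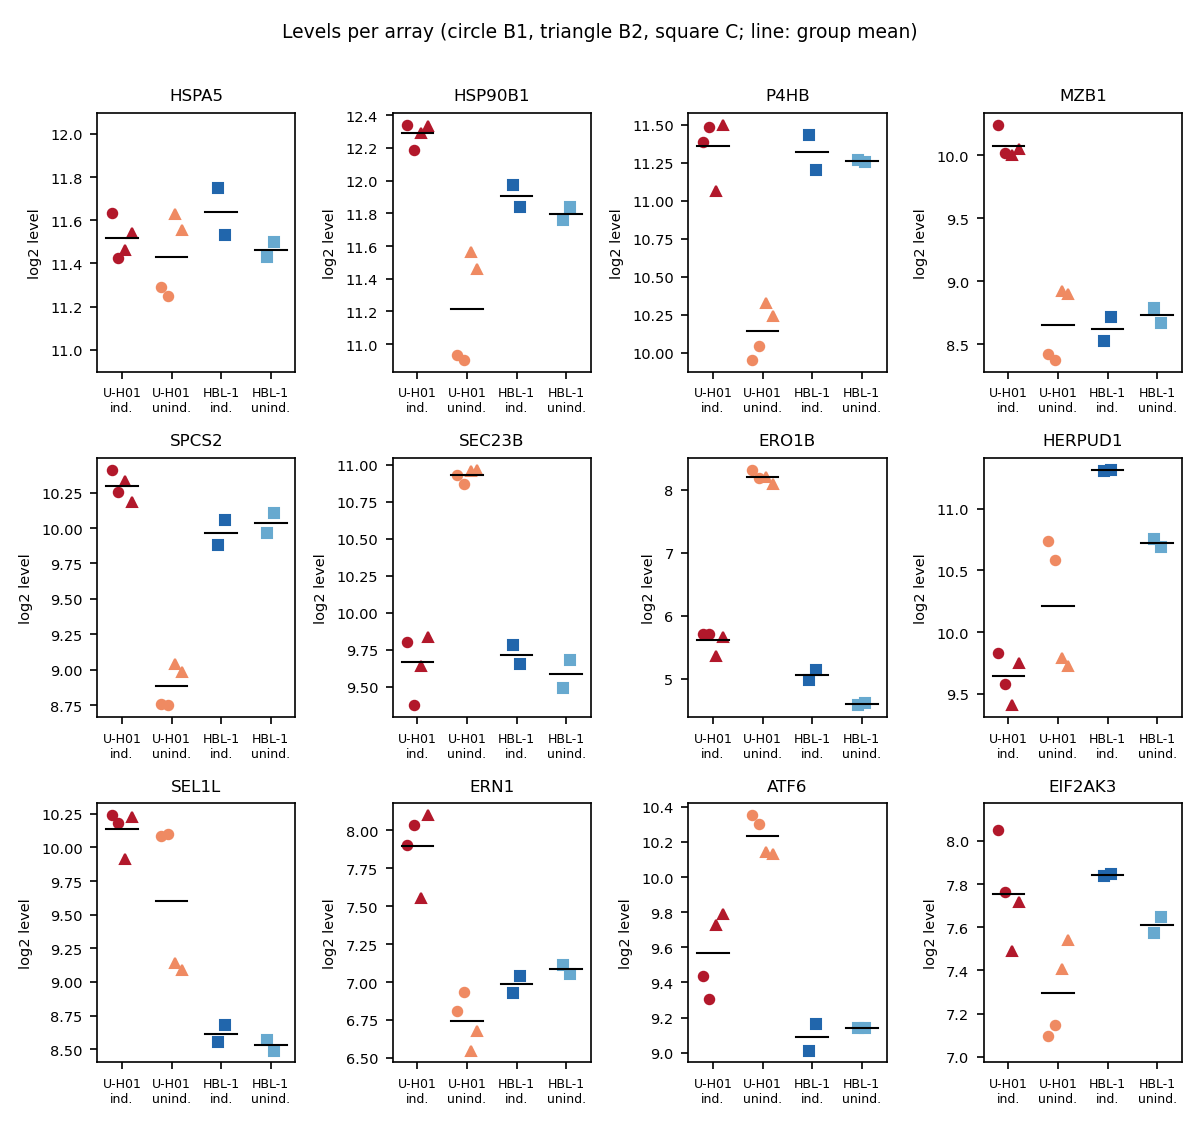
Log2 level of 12 ER genes on each array, with U-H01 labelled induced (ind.) left of uninduced (unind.) U-H01 and HBL-1 induced left of HBL-1 uninduced. Circles are population B1, triangles B2, squares C, and lines are group means. In HSP90B1, HERPUD1 and SEL1L the uninduced U-H01 arrays fall into 2 pairs by population, and HSPA5 groups overlap.

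The same genes in HBL-1 are set beside this as the second line with an induced hairpin. There 0 of 40 passed, where 0.608% of all genes did, and 6 of 40 had an unadjusted p under 0.05. Here and below, counts at an unadjusted p are given without the share of all genes at that level. Such counts are therefore not read as particular to a list. The median difference of the 40 genes was 0.06, against -0.01 over all genes. The smallest p belonged to ERO1B, with 4.97 and 5.14 on the induced HBL-1 arrays and 4.58 and 4.62 on the uninduced ones, a difference of 0.46 ± 0.12 (adjusted p = 0.155 by limma). SEC61B had 10.18 and 9.85 on the induced HBL-1 arrays and 10.54 and 10.41 on the uninduced ones (-0.46 ± 0.14, adjusted p = 0.219), and TRAM1, a membrane protein beside the channel, had 10.36 and 10.45 on the induced HBL-1 arrays and 10.72 and 10.72 on the uninduced ones (-0.32 ± 0.10, adjusted p = 0.28). In these 3 genes both induced arrays lay on the same side of both uninduced ones. That held upward for 12 of the 40 genes and downward for 6, against 19.7% and 21.6% of all genes. HSPA5 differed by 0.18 ± 0.14 and HSP90B1 by 0.11 ± 0.16. For MZB1 the difference was -0.11 ± 0.17, for FKBP11 0.09 ± 0.13 and for DERL3 0.07 ± 0.11. The sensors ERN1, ATF6 and EIF2AK3 gave -0.10, -0.05 and 0.23, with adjusted p of 0.917, 0.973 and 0.808. With the 4 HBL-1 arrays fitted alone, on 1 residual degree of freedom, HERPUD1, ERO1B and PDIA4 passed as higher and SEC61B as lower (adjusted p = 0.000352 to 0.0136).

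Whether the change differed between the lines was tested as a difference of differences. The change in U-H01 exceeded that in HBL-1 for 15 of the 40 genes and was below it for 5, where 32.5% of all genes passed, 15.5% as higher and 17% as lower. With arrays centred, the share of higher calls among all calls went to 62.1% against 47.6%. At that setting 17 of the 40 ER genes were above and 4 below, as were 4081 and 2488 of all 18417 genes. MZB1 (1.53 ± 0.21), SPCS2 (1.48 ± 0.15), ERN1 (1.25 ± 0.16), P4HB (1.16 ± 0.19) and HSP90B1 (0.97 ± 0.19) were among the 15, with adjusted p from 8.83e-06 to 0.00167. SDF2L1 (1.01 ± 0.27) and CRELD2 (0.86 ± 0.18) passed with all arrays but not without HBL-1 replicate 2 of either group (adjusted p = 0.161 and 0.0571). SEC61B (0.86 ± 0.17, adjusted p = 0.00157) moved up in U-H01 and had a negative difference in HBL-1. The 5 below were ERO1B (-3.05 ± 0.15), SEC23B (-1.40 ± 0.18), HERPUD1 (-1.15 ± 0.26), SSR3 (-0.71 ± 0.16) and ATF6 (-0.61 ± 0.19). ATF6 lost its call in 9 of the alternatives (adjusted p up to 0.187), including each fit with an HBL-1 array left out, and SSR3 without HBL-1 replicate 1 of either group (adjusted p = 0.0544). Counts were 8 higher without HBL-1 replicate 2 and 3 lower without HBL-1 replicate 1, of either group. Apart from the 8 genes named, the positive ones were 7, of which FKBP2 (0.68 ± 0.15) alone passed in every fit with 1 array left out. HSPA5 (-0.09 ± 0.17), EIF2AK3 (0.23 ± 0.23), DERL3 (0.12 ± 0.13) and FKBP11 (0.38 ± 0.16) did not pass.

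**Figure D3:**
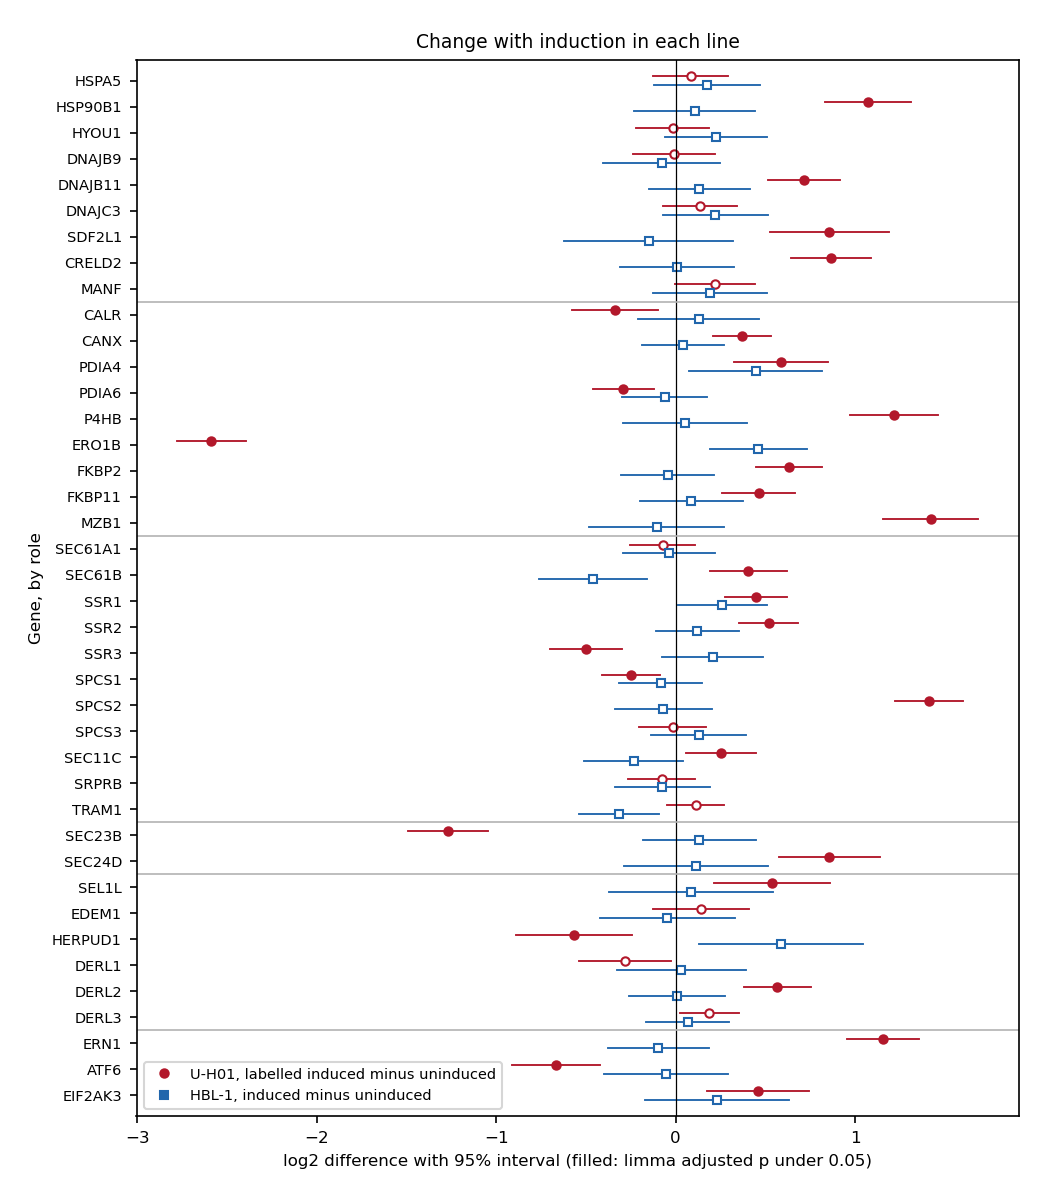
Log2 difference between induced and uninduced arrays of each of the 40 ER genes, with 95% intervals from limma, for U-H01 (circles) above HBL-1 (squares) in each row, genes ordered by role. Filled symbols passed at an adjusted p under 0.05: 20 circles to the right of 0, 8 to the left, and no square.

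Over the 4 groups, U-H01 labelled induced had the highest mean of 17 of the 40 genes (42.5%, against 28.9% of all genes), and uninduced U-H01 had the lowest mean of 17 (42.5%, against 33.7%) and the highest of 6 (15%, against 26.5%). HBL-1 induced was highest in 10 and HBL-1 uninduced in 7. The lines were then compared without and with induction.

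Uninduced U-H01 was higher than uninduced HBL-1 in 7 of the 40 genes and lower in 17, where 42.9% of all genes passed, 20.8% as higher and 22.1% as lower, and the median difference was -0.12, against -0.03 over all genes. All arrays of U-H01 lay above both of HBL-1 for 9 of the 40, against 25.6% of all genes, and below for 18, against 29.7%. ERO1B differed most, with 8.32, 8.19, 8.20 and 8.09 in uninduced U-H01 against 4.58 and 4.62 in uninduced HBL-1, or 3.60 ± 0.11 (12.1-fold, adjusted p = 5.37e-11 by limma). At levels as low as those of HBL-1 that fold may be understated, which was not tested. SEC23B (1.35 ± 0.13), ATF6 (1.09 ± 0.14), SEL1L (1.07 ± 0.18) and SEC11C (1.01 ± 0.11) were also higher, as were SSR1 (0.48 ± 0.10) and SSR2 (0.37 ± 0.09), both of which failed without HBL-1 uninduced replicate 1 (adjusted p = 0.068 and 0.058), and SSR2 also without replicate 2 (adjusted p = 0.131). Lower in U-H01 by the most was EDEM1, a lectin that hands glycoproteins to degradation, with 8.93, 8.73, 8.57 and 8.39 against 10.07 and 10.05 (-1.41 ± 0.15, adjusted p = 6.02e-06). SDF2L1 (-1.33 ± 0.19), DNAJB11 (-1.21 ± 0.11), SPCS2 (-1.15 ± 0.11), P4HB (-1.12 ± 0.14), SEC24D (-0.91 ± 0.16), CRELD2 (-0.85 ± 0.13) and SEC61B (-0.75 ± 0.12) followed, with adjusted p from 1.81e-06 to 0.000427. DERL3 was lower by 0.73 ± 0.09 (adjusted p = 2.96e-05), and HSP90B1 by 0.58 ± 0.13 (adjusted p = 0.00334), a call that ended without HBL-1 uninduced replicate 2 (adjusted p = 0.133). ERN1 (-0.34 ± 0.11, adjusted p = 0.0259) failed without either HBL-1 uninduced array, without uninduced U-H01 replicate 2 or 4 and without the population and time terms (adjusted p = 0.0594 to 0.341). HSPA5 (-0.03 ± 0.12), MZB1 (-0.07 ± 0.15), EIF2AK3 (-0.31 ± 0.16) and FKBP11 (-0.30 ± 0.11) did not pass, and the count of lower genes was 11 without HBL-1 uninduced replicate 2.

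U-H01 labelled induced was higher than induced HBL-1 in 13 of the 40 genes and lower in 10, where 38.6% of all genes passed, 18% as higher and 20.6% as lower, with a median of 0.01 against 0.00 over all genes. The arrays did not overlap for 15 higher and 10 lower genes, against 22.9% and 25.5% of all genes. MZB1 had 10.24, 10.02, 10.00 and 10.05 in U-H01 labelled induced against 8.53 and 8.72 in induced HBL-1, or 1.45 ± 0.15 (adjusted p = 4.94e-06 by limma), and ERN1 had 7.91, 8.03, 7.55 and 8.10 against 6.93 and 7.04, or 0.91 ± 0.11 (adjusted p = 2.45e-05). In both genes the U-H01 arrays were all above those of HBL-1. SEL1L (1.52 ± 0.18), SEC11C (1.49 ± 0.11), SSR2 (0.76 ± 0.09), SSR1 (0.67 ± 0.10), TRAM1 (0.62 ± 0.09) and FKBP2 (0.61 ± 0.10) were higher too. ATF6 (0.48 ± 0.14, adjusted p = 0.0142) failed without either induced HBL-1 array (adjusted p = 0.248 and 0.0955). HSP90B1 (0.38 ± 0.13, adjusted p = 0.039) failed without 1 of 6 arrays, U-H01 replicates 1 and 2 labelled induced and each of the 4 of HBL-1 (adjusted p = 0.0537 to 0.414). HERPUD1 had the largest shortfall, 9.83, 9.58, 9.41 and 9.75 against 11.30 and 11.31 (-1.67 ± 0.18, adjusted p = 8.23e-06), followed by EDEM1 (-1.22 ± 0.15), SSR3 (-0.80 ± 0.11), SPCS3 (-0.74 ± 0.10) and SRPRB (-0.73 ± 0.10). DNAJB11 (-0.62 ± 0.11) and SEC61A1 (-0.60 ± 0.10) were lower except without HBL-1 induced replicate 1 (adjusted p = 0.0712 and 0.0507), where the counts were 8 higher and 6 lower. DERL3, a gene of plasma cells, was lower than in HBL-1 by 0.61 ± 0.09 (adjusted p = 0.000157). P4HB, SPCS2, SDF2L1 and CRELD2, all lower in uninduced U-H01 than in uninduced HBL-1, differed here by 0.04, 0.33, -0.32 and 0.01, of which SPCS2 passed as higher (adjusted p = 0.028), but not without HBL-1 induced replicate 1 or 2 (adjusted p = 0.254 and 0.184) or U-H01 replicate 1 or 2 labelled induced (adjusted p = 0.079 and 0.0649). HSPA5 (-0.12 ± 0.12), EIF2AK3 (-0.09 ± 0.16) and FKBP11 (0.08 ± 0.11) did not pass. The comparisons of this and the preceding paragraphs share arrays.

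Some of these genes differed between the 2 U-H01 populations without induction. In uninduced arrays, B2 was above B1 in 6 of the 40 genes (SDF2L1, HSP90B1, PDIA4, MZB1, CRELD2 and CALR) and below it in 2 (SEL1L and HERPUD1), where 3.44% of all genes passed, 0.874% as higher and 2.57% as lower. HSP90B1 had 11.57 and 11.46 in B2 against 10.94 and 10.90 in B1 (0.59 ± 0.11, adjusted p = 0.0161 by limma), and PDIA4 had 10.35 and 10.22 against 9.66 and 9.73 (0.59 ± 0.12, adjusted p = 0.0218). SEL1L went the other way, with 9.14 and 9.09 in B2 against 10.08 and 10.10 in B1 (-0.98 ± 0.12, adjusted p = 0.00218), and so did HERPUD1, with 9.79 and 9.73 against 10.74 and 10.59 (-0.91 ± 0.14, adjusted p = 0.00556). In each of these genes the B2 arrays lay on 1 side of the B1 arrays, as they did upward for 25 of the 40 genes and downward for 8, against 26.7% and 25.1% of all genes. SDF2L1 (0.70 ± 0.15), MZB1 (0.51 ± 0.12), CRELD2 (0.50 ± 0.12) and CALR (0.47 ± 0.11) passed with adjusted p of 0.0306 to 0.0499. These calls rest on 2 arrays a side: 0 genes were higher without uninduced replicate 1, 3 or 4, 1 without replicate 2, and 3 without any 1 of the HBL-1 arrays, which share in the spread. SEL1L alone passed in every fit with 1 array left out, and HERPUD1 failed without uninduced replicate 1 or 4 (adjusted p = 0.0889 and 0.0815). HSPA5 (0.32 ± 0.12), ERN1 (-0.26 ± 0.13), ATF6 (-0.19 ± 0.11), EIF2AK3 (0.35 ± 0.13), DERL3 (0.18 ± 0.11) and FKBP11 (0.30 ± 0.13) did not pass.

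Among arrays labelled induced, B2 minus B1 passed in 0 of the 40 genes, where 0.109% of all genes did (0.0271% as higher and 0.0814% as lower), and 5 of 40 had an unadjusted p under 0.05. The smallest p values were those of DERL1 (-0.46 ± 0.12), ATF6 (0.39 ± 0.11) and EIF2AK3 (-0.30 ± 0.13), with adjusted p of 0.251, 0.296 and 0.559. HSPA5, HSP90B1, ERN1, MZB1, DERL3 and FKBP11 differed by -0.14 (ERN1) to 0.30 (FKBP11). Each population had a change of its own: in B1 18 of the 40 genes were higher and 5 lower, where 39.7% of all genes passed, 18.8% as higher and 20.9% as lower, and in B2 18 were higher and 7 lower, where 37.6% passed, 18.2% as higher and 19.4% as lower. The rise of MZB1 was 1.73 ± 0.12 within B1 and 1.11 ± 0.12 within B2, and ERO1B fell by 2.54 ± 0.13 and 2.64 ± 0.13. The difference between the 2 changes passed in 0 of 40 genes, where 0.592% of all genes did. An unadjusted p under 0.05 was found in 16 of 40, with no share of all genes at that level set beside it. SEL1L (0.84 ± 0.17, adjusted p = 0.0637), HERPUD1 (0.78 ± 0.20, adjusted p = 0.113) and ATF6 (0.58 ± 0.15, adjusted p = 0.135) had the smallest p, and the difference was -0.62 ± 0.17 for MZB1, -0.54 ± 0.16 for HSP90B1, -0.65 ± 0.18 for EIF2AK3, -0.35 ± 0.17 for HSPA5, 0.12 ± 0.18 for ERN1, 0.00 ± 0.19 for FKBP11 and 0.06 ± 0.15 for DERL3. With replicate 3 of U-H01 labelled induced left out, SEL1L and HERPUD1 passed (1.01 and 1.02, adjusted p = 0.0351 and 0.0326), and 3 genes passed in each direction with the trend and robust options of limma.

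Between the numbered time points 0 of the 40 genes passed in either line, as did 0% of all genes. In U-H01 the smallest p was that of ERN1, which was 0.23 ± 0.09 higher at time point 2 (adjusted p = 0.634 by limma), followed by SRPRB (-0.17 ± 0.09) and SSR3 (-0.16 ± 0.09). In HBL-1 they were DNAJB9 (0.42 ± 0.15), SPCS3 (0.27 ± 0.12) and SDF2L1 (-0.38 ± 0.22), each with an adjusted p of 0.999. HSPA5, HSP90B1, ATF6, EIF2AK3, MZB1, DERL3 and FKBP11 differed between time points by -0.15 (FKBP11) to 0.06 (DERL3) in U-H01, and the same genes by -0.13 (FKBP11) to 0.13 (DERL3) in HBL-1. At an unadjusted p under 0.05 there were 1 of 40 in U-H01 and 2 in HBL-1.

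The regulators above the 40 genes did not change as 1 group in U-H01 either. XBP1, the factor spliced by IRE1, had levels of 11.52, 11.59, 11.28 and 11.50 on the arrays labelled induced, against 9.86, 9.97, 10.03 and 10.08 on the uninduced ones, with no overlap, and rose by 1.49 ± 0.09 (adjusted p = 1.55e-08 by limma). The probe set does not tell spliced from unspliced XBP1 mRNA. ATF4, the factor of the PERK branch, overlapped between groups, with 10.87, 10.53, 10.70 and 10.86 on the arrays labelled induced, against 11.04, 11.12, 10.79 and 10.68 on the uninduced ones (-0.17 ± 0.11, adjusted p = 0.242). DDIT3 (CHOP), its target that promotes cell death, had 8.37, 7.74, 7.26 and 8.36 on the arrays labelled induced, against 10.72, 10.78, 9.31 and 9.19 on the uninduced ones. All arrays labelled induced were lower, and uninduced B1 was higher than uninduced B2, for a fall of 2.06 ± 0.27 (adjusted p = 2.99e-05). ATF3, another factor of this branch, fell by 3.25 ± 0.11, BCL2L11, a trigger of apoptosis, by 1.84 ± 0.09, and CREB3, an ER-bound factor, by 1.07 ± 0.08. Of the 27 measured regulators and targets of the stress response 5 were higher and 13 lower, with a median of -0.17, where 22.4% and 23.5% of all genes were. After centring 8 were higher and 11 lower, as were 7517 and 3336 of all 18417 genes. In HBL-1 0 of the 27 passed, with 4 at an unadjusted p under 0.05, and XBP1 differed there by -0.26 ± 0.12 (adjusted p = 0.526) and DDIT3 by 0.36 ± 0.38.

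Genes of plasma cells other than the 40 were mostly higher in U-H01 labelled induced, 15 of 25 measured, with 6 lower and a median of 0.86. Over all genes 22.4% were higher and 23.5% lower, so the count of lower ones is near the share of all genes. PRDM1 (BLIMP1), the repressor that commits B cells to this fate, had levels of 10.65, 10.76, 10.22 and 10.73 on the arrays labelled induced, against 7.55, 7.33, 7.24 and 7.01 on the uninduced ones. IRF4, which acts before it, had 11.72, 11.80, 11.43 and 11.64 on the arrays labelled induced, against 11.01, 10.98, 10.78 and 10.83 on the uninduced ones. Neither gene overlapped between groups, and the rises were 3.31 ± 0.11 and 0.75 ± 0.07 (adjusted p = 1.14e-10 and 2.81e-06). CD38 (6.62 ± 0.12), TNFRSF13B (2.25 ± 0.08), CAV1 (3.44 ± 0.09) and SLC44A1 (2.84 ± 0.10) had the smallest p. Uninduced CD38 (4.53 to 4.64) lay at or below the lower quartile of genes on the arrays, so the size of its rise may be understated. SDC1 (CD138), the surface proteoglycan by which plasma cells are recognised, went the other way, with 6.21, 6.40, 6.52 and 6.58 on the arrays labelled induced, against 6.73, 6.83, 6.86 and 6.84 on the uninduced ones and a fall of 0.39 ± 0.08 (adjusted p = 0.00117). JCHAIN, the joining chain of secreted IgA and IgM, fell by 0.86 ± 0.16 at a level near or below the lower quartile of genes (4.61 to 4.78) on the U-H01 arrays, and is named here after its values were seen. Of 17 mature B-cell genes that plasma cells switch off, 7 were higher and 6 lower, with a median of 0.04. They included PAX5 (2.76 ± 0.08), CD22 (4.11 ± 0.12) and CR2 (4.44 ± 0.17) as higher and SWAP70 (-3.06 ± 0.17) as lower. The mean of CR2 in uninduced U-H01, 3.15, lay below the lower quartile too. In HBL-1 1 of the 25 plasma-cell genes passed, TNFRSF13B, which fell by 0.65 ± 0.11 (adjusted p = 0.0174), and 0 of the 17 B-cell genes did, with 2 at an unadjusted p under 0.05. After centring 17 of the plasma-cell genes were higher and 5 lower in U-H01, and 7 and 5 of the B-cell genes. Of all 18417 genes 7517 were then higher and 3336 lower. XBP1 and BHLHA15 stand on both the stress and the plasma-cell list.

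**Figure D4:**
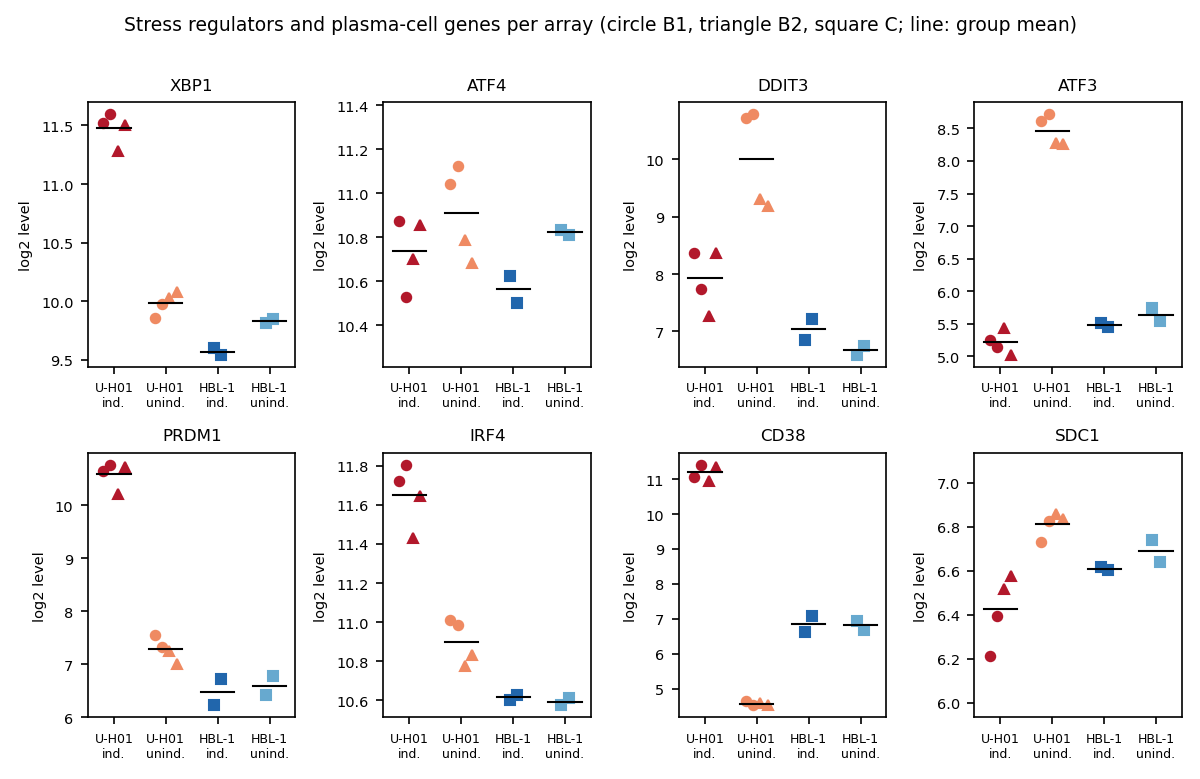
Log2 level of 4 stress regulators (top) and 4 plasma-cell genes (bottom) on each array, with U-H01 labelled induced (ind.) left of uninduced (unind.) U-H01 and HBL-1 induced left of HBL-1 uninduced. Circles are B1, triangles B2, squares C, lines group means. XBP1, PRDM1, IRF4 and CD38 are highest in U-H01 labelled induced, DDIT3 and ATF3 in uninduced U-H01, and SDC1 is lowest in U-H01 labelled induced.

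Further genes of these pathways were counted in U-H01, where 22.4% of all genes were higher and 23.5% lower. Of 33 further folding enzymes and chaperones 15 were higher and 7 lower, with a median of 0.16. QSOX1 (-3.02 ± 0.10), an oxidase of secreted proteins, and FKBP10 (-2.47 ± 0.09), a folding factor of collagen, fell, while TXNDC11 (1.37 ± 0.10) and ERP29 (1.04 ± 0.09) rose. Of 25 further genes of translocation and glycan transfer 11 were higher and 5 lower, led by TUSC3 (3.36 ± 0.11), a subunit of the oligosaccharyltransferase, TRAM2 (2.05 ± 0.09) and SEC62 (0.80 ± 0.08), with SEC61A2, the second pore gene, lower by 1.07 ± 0.08. Of 23 further genes of degradation 8 were higher and 6 lower. UBE2J1, the ubiquitin-conjugating enzyme of the ER membrane, had 9.90, 9.89, 9.62 and 9.71 on the arrays labelled induced, against 4.22, 4.25, 4.53 and 4.35 on the uninduced ones, a rise of 5.44 ± 0.10. The uninduced levels lie below the lower quartile of genes on the arrays (4.61 to 4.78), where a difference can be compressed, so the size may be understated. SELENOK (-2.11 ± 0.09), VCP (-1.07 ± 0.08), the ATPase that extracts proteins, and ERLIN2 (-1.06 ± 0.08) fell. Of 41 further genes of ER-to-Golgi transport 10 were higher and 13 lower, with a median of -0.01. COPA (-1.66 ± 0.08) of the COPI coat, TFG (-1.28 ± 0.09) and PREB (-1.20 ± 0.08), both of ER exit sites, fell, and ARFGAP3 (1.29 ± 0.10) rose. After centring the counts were 18 and 5, 12 and 4, 11 and 5, and 19 and 12, higher and lower, in the same order. Of all 18417 genes 7517 were then higher and 3336 lower. In HBL-1 0 genes of these 4 lists passed, with 5, 2, 3 and 4 at an unadjusted p under 0.05.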

How the data were processed

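RNA of 12 arrays was measured, and per the submitters' processing notes the authors made the deposited log2 values with RMA and Partek, versions of which these sources do not give. RMA subtracts background, brings arrays to like distributions and sums probes, which can hide a shift of all genes. The deposited log2 values run from 2.07 to 14.29, with array medians of 5.79 to 5.88. Of 33297 probe sets the platform annotation pairs 19460 with 1 symbol, 1754 with several and 12083 with none. Only the first were tested, with 1 probe set per gene (18417 genes), and Entrez identifiers of 19429 matched RefSeq, changing 0 symbols. Precision is set by the count of arrays, of which 0 pairs were identical.

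From these values 1 linear model over the 12 arrays was fitted with lmFit and eBayes of limma 3.58.1 (R 4.3.3), with terms for population, time point within line and induction within line (7 terms, 5 residual degrees of freedom), or 1 induction term per U-H01 population (8 terms, 4 degrees of freedom). Tests were two-sided with Benjamini-Hochberg adjustment over all genes. Comparisons within uninduced and within labelled-induced U-H01 were added after the data were seen. An induced and an uninduced array of 1 population and time point form a pair per the labels. Their departures from the means of their groups had correlations of 0.14 and -0.03 in B1, of 0.10 and 0.03 in B2 and of 0.10 in C.

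The 42 genes, the 7 lists of related genes and the 5 lists of markers were chosen with earlier results of these data known. Named in each comparison are the 8 largest rises and 8 largest falls that passed (all where fewer, the 3 smallest p where none passed), with HSPA5, HSP90B1, ERN1, ATF6, EIF2AK3, MZB1, DERL3 and FKBP11 always, and of each other list the 4 smallest p, with XBP1, ATF4, DDIT3, PRDM1, IRF4, SDC1, RELB, REL and RELA. Others are given by range, or named after their values were seen. Alternatives were the pair as a block, another scaling, filters, probe-set rules, limma options, each line alone, each U-H01 population and each of the 12 arrays left out. On simulated data over 18417 genes the U-H01 term recovered 39 of 67 genes changed by 0.5 log2 units, 62 of 67 by 1 and 66 of 66 by 2, with 8 of 18217 unchanged genes called. The HBL-1 term recovered 19 of 67, 56 of 67 and 66 of 66, with 1 called. The simulation left 18217 of 18417 genes unchanged, while 45.8% of all genes passed in the U-H01 comparison of the real arrays. Its recoveries therefore do not measure those of the real U-H01 comparison. Promoters came from RefSeq (GRCh38.p14). Retrieval signals at protein ends were planned but not analysed here. Plots used matplotlib 3.10.9 and Python 3.11.15.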

Additional observations from a re-analysis of the deposited data

Results flagged for a closer look

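In 20 of the 40 ER genes the change with induction differed between the lines by the limma test of that difference, where 32.5% of all genes passed. Of the 20, 10 lost the call in some alternative, and the higher ones numbered 8 without HBL-1 replicate 2 of either group. The log2 change in U-H01 minus that in HBL-1 was positive for MZB1 (1.53), SPCS2 (1.48), ERN1 (1.25), P4HB (1.16), SDF2L1 (1.01), HSP90B1 (0.97), SEC61B (0.86), CRELD2 (0.86), SEC24D (0.74), FKBP2 (0.68), DNAJB11 (0.58), DERL2 (0.56), SEC11C (0.49), TRAM1 (0.43) and SSR2 (0.40). It was negative for ERO1B (-3.05), SEC23B (-1.40), HERPUD1 (-1.15), SSR3 (-0.71) and ATF6 (-0.61). The B-lineage markers that moved with the U-H01 groups are given in the report, and their part in these differences was not tested.

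In 2 of 80 groups of 4 arrays, 1 array lay far from the other 3, where chance gives about 1 in 20. ERO1B in U-H01 replicate 3 labelled induced had a level of 5.35, against 5.66 to 5.71 in the other 3, a gap of 0.839 of the group's range. SEC11C in uninduced U-H01 replicate 3 had 10.41, against 10.26 to 10.27, a gap of 0.96 of the range. Without uninduced replicate 3 SEC11C did not pass (0.28, adjusted p = 0.0544).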

How the results depend on the processing

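The counts of the 40 ER genes that passed were recomputed with each of the 12 arrays left out and under 11 other settings, and 0 named changes that had passed reversed direction. Named differences that had not passed did change sign in some settings, as HSPA5 in U-H01 did within population B2 (-0.09). In U-H01, 5 genes instead of 8 were lower with arrays centred on their median, where all differences move up by 0.15, and 5 within population B1, which has fewer arrays. In HBL-1 fitted alone 3 were higher and 1 lower, against 0. The difference between populations in induction gave 1 higher gene among those above the median level and 3 higher and 3 lower with the trend and robust options, against 0. In uninduced arrays, B2 minus B1 gave 0 higher genes with all probe sets tested, which adjusts over more tests, and 3 with the U-H01 arrays alone, against 6. Beyond what is stated, the cause was not tested.

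With 1 array left out the U-H01 change kept 18 to 20 higher and 6 to 9 lower genes and the HBL-1 change 0. The difference between lines had 8 to 15 higher, with 8 without HBL-1 replicate 2, and 3 to 5 lower, with 3 without HBL-1 replicate 1. Uninduced U-H01 minus HBL-1 had 5 to 8 higher and 11 to 18 lower, with 11 without HBL-1 uninduced replicate 2. U-H01 labelled induced minus induced HBL-1 had 8 to 13 higher and 6 to 11 lower, with 8 and 6 without HBL-1 induced replicate 1. The difference between populations in induction had 0 to 2 higher, with 2 without U-H01 induced replicate 3, and 0 lower, and uninduced B2 minus B1 had 0 to 6 higher and 1 to 2 lower, with 1 lower without uninduced replicate 1 or 4. A group left with 1 array takes its spread from the others.

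With the pair as a replicate block, 20 and 8 genes passed as higher and lower in U-H01, 0 in HBL-1, and 14 and 5 in the difference between lines, where SSR2 alone lost its call (adjusted p = 0.0507). Levels near background limit what can be read for ERO1B in HBL-1, for UBE2J1, CD38, CR2 and SLAMF7 in uninduced U-H01, for DENND5B in U-H01 labelled induced, and for JCHAIN in U-H01. DERL3 in U-H01 lay close to the median gene.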

Other observations

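The 27 regulators and targets of the stress response, of which 5 were higher and 13 lower in U-H01 (22.4% and 23.5% of all genes), hold further members named here after their values were seen. PPP1R15A (GADD34), which ends the block on translation, averaged 7.16 in U-H01 labelled induced and 9.14 in uninduced U-H01, a log2 difference of -1.98 ± 0.24 (adjusted p = 1.88e-05 by limma). CHAC1, which degrades glutathione, differed by -1.53 ± 0.22, SESN2, a stress-induced inhibitor of growth signalling, by -1.38 ± 0.17, TRIB3, a pseudokinase, by -1.06 ± 0.23, and ASNS, which makes asparagine, by -0.61 ± 0.21. These 5 passed as lower, with no overlap of arrays except in ASNS. In HBL-1 the same genes differed by -0.42, -0.20, -0.36, -0.16 and -0.24, and 0 of the 5 passed. DDIT4 (REDD1), which also answers to hypoxia and glucocorticoids, differed by 3.13 ± 0.35 in U-H01 (adjusted p = 8.27e-06) and by 1.66 ± 0.50 in HBL-1 (adjusted p = 0.216). NUPR1, VEGFA and STC2 of the same list differed by 0.06, 0.32 and 0.03 in U-H01 and did not pass. Of the proteases that cleave ATF6, MBTPS1 rose by 0.48 ± 0.09 and MBTPS2 fell by 0.94 ± 0.10 in U-H01.

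Among the plasma-cell genes not named in the report, CD27 (8.02-fold), SLAMF7 (1.86 ± 0.20), TNFRSF17 (1.72 ± 0.23), which is the antigen BCMA, PIM2 (1.42 ± 0.09) and TENT5C (1.24 ± 0.21), which lengthens the tails of secretory mRNAs, rose in U-H01 labelled induced. ITM2C fell by 2.16 ± 0.14 and DENND5B, which serves chylomicron secretion in the gut, by 1.57 ± 0.14. BHLHA15 (MIST1), the factor that scales secretory organelles under XBP1, fell by 0.27 ± 0.09 (adjusted p = 0.0235) with overlapping arrays. In HBL-1 0 of these 8 genes passed, with TNFRSF17 at -1.06 ± 0.33 (adjusted p = 0.23). These genes too were named after their values were seen.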
